A study of Mus musculus with 6 samples.

Results

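The 40 genes described here encode the sensors and transcription factors of the unfolded protein response, the chaperones, oxidoreductases and degradation machinery of the endoplasmic reticulum (ER), and the heat shock proteins of the cytosol and mitochondria. The set is a list of names, drawn up with earlier results of these data known. Among these results was that Ddit3 differs between libraries of the beta-actin knockout. All 40 genes were found by symbol among the 46603 gene identifiers counted in each library. Of these, 28 act in or at the ER and 12 are heat shock proteins. RNA was sequenced from mouse embryonic fibroblasts (MEFs), connective tissue cells of BALB/c embryos aged 10.5 days, either wild-type (WT) or homozygous for a knockout of beta-actin (KO), with 3 libraries of each genotype. Both genotypes had spent 6 days in growth medium with insulin, dexamethasone, 3-isobutyl-1-methylxanthine (IBMX) and ascorbic acid, a mixture that pushes fibroblasts toward adipocytes. No library from before that treatment was analysed here, and the labels do not say whether the libraries of a genotype came from separate embryos, clones or dishes, so each p-value measures the spread between these libraries, which may be technical.

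Proteins that enter the secretory pathway fold in the ER with the help of lumenal chaperones and of enzymes that form disulfide bonds, and those that fail are sent back to the cytosol for destruction by ER-associated degradation (ERAD). When unfolded protein builds up, the sensors IRE1, PERK and ATF6 switch on the unfolded protein response. ATF6 and the spliced form of XBP1 then induce chaperone and ERAD genes, while PERK slows translation and, through ATF4, induces CHOP, the product of Ddit3. Cytosolic heat shock proteins answer to a separate factor, HSF1. Fibroblasts secrete collagen in bulk, so this machinery carries a heavy load in them.

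The targeted gene Actb was read 60501, 60582 and 53894 times in the WT libraries but only 276, 1988 and 1850 times in KO replicates 1, 2 and 3. Library totals were between 26955708 and 38619711 counts, and levels are given as CPM, counts per 1e6 of a total scaled by the trimmed mean of M values (TMM). The limit of detection, set at 3 counts, was 0.0816 to 0.113 CPM. Fibroblast genes were present, with the summed level of 8 markers at 2966 to 3708 CPM in WT and 6831 to 9366 CPM in KO, although the fibroblast marker Thy1 was at most 0.0314 CPM in WT and 0.751 CPM in KO, and Col1a2 at most 0.409 and 7.98 CPM. Of 5 adipocyte markers, Adipoq, Plin1 and Lep were at or below the limit of detection in every library. In bulk RNA, fewer cells of a type and less RNA per cell cannot be told apart. Markers of professional secretory cells, 6 in all, summed to at most 0.435 CPM in any library.

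KO replicate 1 stood apart from the other KO libraries. Of all tested genes with a value, 6.59% were at least 2-fold above the mean of KO replicates 2 and 3 in this library and 11.2% at least 2-fold below. For the other 5 libraries, set against the rest of their own group in the same way, the shares were 0.888% to 2.82% above and 1.44% to 3.96% below. Results are therefore given with and without it. It was left out after its values were seen, which narrows the spread within KO. Calls and p-values without it are therefore descriptive and rest on KO replicates 2 and 3.

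The promoters of 32 of the 40 genes are in the RefSeq promoter table (build GRCm38.p6, 250 bases before to 50 after each start), where Ero1lb is listed as Ero1b. Entries for Atf6, Hyou1, Manf, Derl1, Hspa8, Cryab, Hsp90aa1 and Hsp90ab1 are missing. The ER stress element (ERSE), read by ATF6 with the factor NF-Y, has the letters CCAAT, then any 9 bases, then CCACG. It was searched on both strands and found in the promoters of 8 members, which is 8 of the 35 promoters listed for these 32 genes (22.9%) against 39 of all 32851 promoters (0.119%). Sites that differ from these letters were not counted, so a promoter without a match may still hold a variant of the element. The matches are shown because they mark which members carry the exact letters near the start. Each is read on the motif's strand with the fixed letters in capitals.

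Hspa5: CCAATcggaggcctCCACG
Hsp90b1, upstream match: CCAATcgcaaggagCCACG
Hsp90b1, downstream match: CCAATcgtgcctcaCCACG
Pdia6: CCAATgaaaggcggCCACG
Ero1lb: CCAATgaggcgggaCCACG
Syvn1: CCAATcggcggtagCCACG
Dnajc3: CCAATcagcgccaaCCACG
Creld2: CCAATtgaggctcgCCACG
Derl3: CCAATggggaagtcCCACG

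The 300 bases around the start of Hspa5 (chr2:34771840-34772139, plus strand) and of Hsp90b1 (chr10:86705395-86705694, minus strand) are given as the promoters of the most abundant ER chaperones of the set, with every match in capitals. The match lies at -65 to -47 from the start in Hspa5, and at -212 to -194 and -107 to -89 in Hsp90b1, the latter on the opposite strand.

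Hspa5 promoter: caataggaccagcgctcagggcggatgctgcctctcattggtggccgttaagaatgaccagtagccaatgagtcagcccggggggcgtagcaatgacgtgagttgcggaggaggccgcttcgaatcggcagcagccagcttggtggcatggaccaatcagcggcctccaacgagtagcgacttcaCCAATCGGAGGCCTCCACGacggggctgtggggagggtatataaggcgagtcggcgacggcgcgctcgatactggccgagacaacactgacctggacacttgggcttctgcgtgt
Hsp90b1 promoter: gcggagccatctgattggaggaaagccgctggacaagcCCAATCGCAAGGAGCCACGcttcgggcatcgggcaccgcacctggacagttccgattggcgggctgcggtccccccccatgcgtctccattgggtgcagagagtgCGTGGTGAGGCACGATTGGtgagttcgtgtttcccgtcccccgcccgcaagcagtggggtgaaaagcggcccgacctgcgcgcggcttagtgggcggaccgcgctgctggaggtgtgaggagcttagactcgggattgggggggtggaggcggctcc

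A shorter variant, ERSE-II (ATTGG, any base, CCACG), was found in Herpud1 and Dnajb11, 2 of 35 member promoters (5.71%) against 12 of all promoters (0.0365%). The heat shock element, searched as 3 alternating GAA and TTC units each 2 bases apart, was found for Hspd1, Hspe1 and Hsph1, the last at both of its listed starts, 4 of 35 (11.4%) against 0.603% of all. Hspd1 and Hspe1 lie head to head on chromosome 1 and share the same element. The UPRE core (TGACG followed by TGG) was in no member promoter against 0.676% of all, and the amino acid response core (TTGCA followed by TCA) was in that of Herpud1 alone, against 0.895% of all. These are matches of letters in a short window and say nothing about binding.

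Herpud1, ERSE-II: ATTGGgCCACG
Dnajb11, ERSE-II: ATTGGcCCACG
Hspe1, heat shock element: TTCtaGAAccTTC
Hsph1, heat shock element: TTCtgGAAagTTC

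Comparing KO with WT asks which of these genes differ between the genotypes. With all 6 libraries, 6 of the 40 genes were higher in KO, 3 were lower and 31 were not called (edgeR quasi-likelihood test with 15009 genes tested, Benjamini-Hochberg adjustment over all of them, threshold 0.05). Log2 fold changes are KO over WT and are given ± SE. Over all tested genes 28.3% were called, 13.8% higher and 14.5% lower, so the members' share of 22.5% was no higher than the background. Scaling by library totals in place of TMM moved the median log2 fold change of all genes to -0.19 and the higher share of called genes from 48.7% to 28.8%, and 4 members were then higher and 7 lower. The ER genes had 5 higher and 1 lower of 28, and the heat shock genes 1 higher and 2 lower of 12. The median log2 fold change was 0.21 over the members, 0.34 over the ER genes and 0.14 over the heat shock genes, against 0.01 over all tested genes. The median absolute log2 fold change was 0.39 over the members and over all tested genes alike. A called difference of 2-fold or more was seen in 1 of 40 members, Hspa1a, against 15.3% of all tested genes. KO libraries all lay above WT for 12 members, against 23.8% of all tested genes, and all below for 5, against 25.8%. When WT replicate 1, 2 or 3 was left out, 4, 2 and 3 members were higher, against 11 when KO replicate 1 was. Lower members numbered 1 without WT replicate 1, 2 or 3 or KO replicate 3, and 9 without KO replicate 1.

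**Figure D1:**
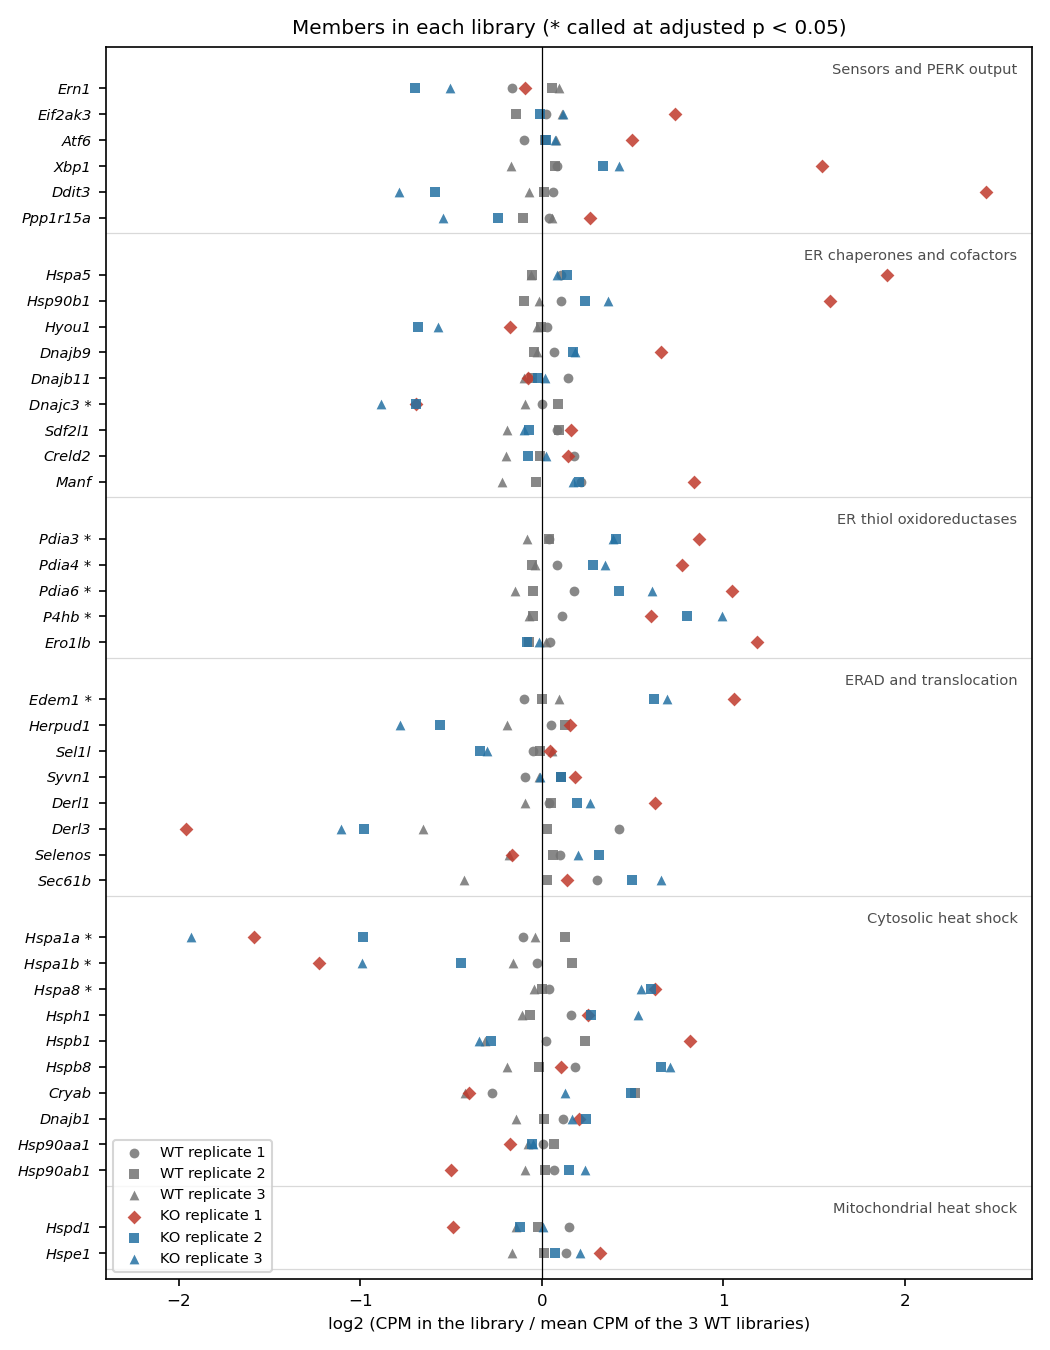
Each member in each of the 6 libraries, as log2 of its CPM over the mean of the 3 WT libraries (horizontal axis), with rows grouped by role, WT in grey, KO replicate 1 as red diamonds and KO replicates 2 and 3 in blue; an asterisk marks a called gene. KO replicate 1 was the highest of all 6 libraries for 18 of the 28 ER genes, Ddit3 included, and for 3 of the 12 heat shock genes.

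As a group the 28 ER genes of the set were highest in KO replicate 1. Summed over the 28 genes, their level was 9342 CPM in KO replicate 1, against 5316 and 5581 CPM in KO replicates 2 and 3 and 4275 to 4730 CPM in WT. Abundant genes weigh most in this sum. Hspa5 was at 2590, 762 and 735 CPM and Hsp90b1 at 1561, 613 and 669 CPM in KO replicates 1, 2 and 3. P4hb, also abundant, was lowest in KO replicate 1, at 1133, 1301 and 1488 CPM. KO replicate 1 was the highest KO library for 23 of the 28 genes, and its median ratio to the mean of the other KO libraries was 1.37, against 0.991 over all tested genes. Ddit3, known beforehand to differ among the KO libraries, is included in the sum, the count and the median. These values therefore describe the set and do not test it. Other lists of ER genes had lower median ratios, 1.05 for other ER folding genes, 1.05 for other ERAD genes, 1.04 for other signalling genes of the unfolded protein response and 1.09 for COPII and ER exit genes. Single genes of these lists were nonetheless high there. In the same order, 8.57%, 0%, 9.52% and 4% were at least 2-fold above, against 17.9% of the 28 ER genes and 6.59% of all tested genes. The other ER folding genes among them were Ero1l (2.76), Sil1 (2.48) and Pdia5 (2.13). None in these lists was 2-fold below. The 12 heat shock genes did not share this, at 4822 CPM in KO replicate 1, 5688 and 5859 CPM in the other KO libraries and 4589 to 5139 CPM in WT, with a median ratio of 0.884. Some other readings of KO replicate 1 stood apart as well, and others did not. Its TMM factor was 0.881, against 0.9646 and 0.9527 in KO replicates 2 and 3 and 1.053 to 1.1 in WT. Actb was at 10.4 CPM in KO replicate 1, against 58.95 and 50.3 CPM in the other KO libraries and 1820 to 1904 CPM in WT. Fabp4, a fatty acid binder of adipocytes, was at 109 CPM there, against 8.60 and 16.2 CPM in KO replicates 2 and 3 and 4.78 to 9.55 CPM in WT, and of the 5 adipocyte markers it was the one above the limit of detection in that library. Of 5 epithelial markers, the keratin Krt18 was at 15.7 CPM against 5.43 and 4.62 CPM, while Epcam had 0 counts in every KO library and Cdh1 0 in KO replicate 1. The epithelial markers summed to 50.6, 30.3 and 49.4 CPM in KO and 5.03 to 10.2 CPM in WT. This sum hides opposite directions, since log2 fold changes of the tested epithelial markers, KO over WT, ran from -8.44 to 5.52. Of 5 macrophage markers, Cd68 was at 14.6 CPM in KO replicate 1 against 2.14 and 2.37 CPM in the other KO libraries and 6.69 to 18.9 CPM in WT, while Cd14 was at 7.62 CPM against 18.1 and 27.8 CPM, and the list summed to 22.3, 20.4 and 30.3 CPM in KO and 17.7 to 35.6 CPM in WT. Mitochondrial transcripts took 3.76% of the counts of KO replicate 1, against 5.41% and 4.43% in the other KO libraries. In WT they took 3.57% to 3.63%, so here KO replicate 1 was the KO library closest to WT. The part of these in the ER gene levels was not tested.

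**Figure D2:**
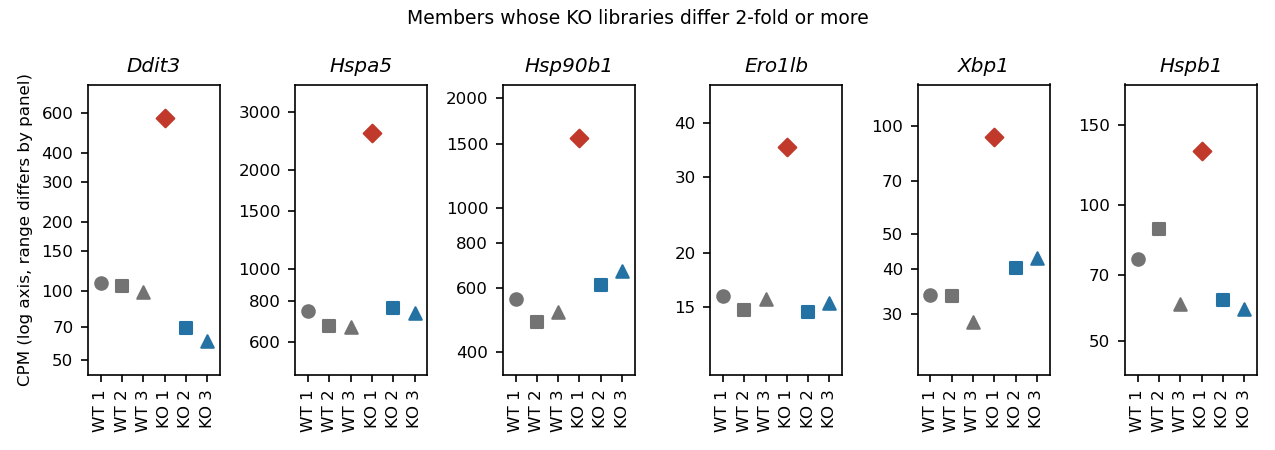
CPM in each library (log axis, own range per panel) of the 6 members whose highest and lowest KO libraries differed 2-fold or more. KO replicate 1 was the high library in all 6. The WT libraries of Hspb1 spread from 60.5 to 88.4 CPM.

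Among the sensors and transcription factors none of 6 genes was called with all libraries. Ddit3, which encodes CHOP, a factor linked to stress-induced cell death, was at 109, 105 and 99.3 CPM in WT and at 569, 69.2 and 60.4 CPM in KO replicates 1, 2 and 3. KO replicate 1 was far above WT and the other KO libraries were below it, so the log2 fold change of 1.16 ± 1.05 (adjusted p = 0.313) averaged over opposite directions. Without KO replicate 1 it turned to -0.69 (adjusted p = 0.00091). Ddit3 shares 68 of its 1713 exon bases with Mars on the opposite strand, and reads there cannot be assigned if strand was ignored. Xbp1, the transcription factor whose mRNA IRE1 splices, was at 33.8, 33.5 and 28.4 CPM in WT and 92.9, 40.3 and 42.8 CPM in KO. Every KO library was above every WT library, yet the difference missed the threshold (log2 fold change 0.88 ± 0.40, adjusted p = 0.0748). Without KO replicate 1 it was 0.38 (adjusted p = 0.0211) and without KO replicate 2 it was 1.09 (adjusted p = 0.0366). With all libraries Xbp1 was called higher with DESeq2 (adjusted p = 0.028) and with no filter (0.0299). Gene counts do not separate the spliced from the unspliced form.

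The sensors themselves varied less. Ern1, which encodes IRE1, was at 84.0, 97.6 and 100.4 CPM in WT and 88.0, 58.0 and 66.3 CPM in KO. KO replicate 1 lay within the WT range and the other KO libraries below it (log2 fold change -0.41, adjusted p = 0.111; without KO replicate 1 -0.60, adjusted p = 0.00362). Eif2ak3, which encodes PERK, was at 14.9 to 17.8 CPM in WT and at 27.4, 16.4 and 17.9 CPM in KO (adjusted p = 0.31). Atf6 was at 80.5 to 90.9 CPM in WT and at 122, 87.4 and 90.7 CPM in KO (adjusted p = 0.319). For both, KO replicates 2 and 3 were close to WT. Ppp1r15a, which encodes the phosphatase subunit GADD34 that reverses the PERK signal, was at 64.6 to 72.2 CPM in WT and 83.5, 58.7 and 47.7 CPM in KO (adjusted p = 0.648; without KO replicate 1 log2 fold change -0.38, adjusted p = 0.0254).

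Of 9 lumenal chaperones and cofactors, 1 was lower in KO and 8 were not called. Hspa5, which encodes BiP, the main HSP70 of the ER, was at 745, 667 and 666 CPM in WT and 2590, 762 and 735 CPM in KO. Only KO replicate 1 left the WT range by a wide margin, 3.46 times the mean of the other KO libraries (log2 fold change 0.98 ± 0.60, adjusted p = 0.161; without KO replicate 1 0.11, adjusted p = 0.4). Hsp90b1, the ER form of HSP90, was at 559, 484 and 514 CPM in WT and 1561, 613 and 669 CPM in KO. All KO libraries were above WT (log2 fold change 0.87 ± 0.43, adjusted p = 0.1; without KO replicate 1 0.31, adjusted p = 0.0455; without KO replicate 2 1.11, adjusted p = 0.0442). With all libraries Hsp90b1 was called higher with DESeq2 (adjusted p = 0.0405) and with no filter (0.041). Its exons share 415 bases with 1810014B01Rik on the opposite strand. Manf, a secreted factor induced by ER stress, was also highest in KO replicate 1, at 93.9 to 127 CPM in WT and 195, 126 and 123 CPM in KO (adjusted p = 0.151), as did the BiP cochaperone Dnajb9, at 13.4 to 14.5 CPM in WT and 21.8, 15.5 and 15.7 CPM in KO (adjusted p = 0.175).

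Dnajb11, Sdf2l1 and Creld2, which encode the BiP cochaperone ERdj3, its partner and an ER-stress-inducible protein, had ratios of KO replicate 1 to the other KO libraries of 0.949, 1.19 and 1.12, and their log2 fold changes were -0.03, 0.002 and 0.03 with SEs of 0.08, 0.12 and 0.13. Dnajc3, a BiP cochaperone that also restrains PERK, fell in KO (log2 fold change -0.75 ± 0.08, adjusted p = 0.0025). It was at 102, 108 and 95.6 CPM in WT and 63.1, 63.0 and 55.2 CPM in KO, with the KO libraries close together. Hyou1, a nucleotide exchange factor of BiP, was at 205 to 213 CPM in WT and at 185, 130 and 141 CPM in KO. KO replicate 1 was 1.37 times the mean of the other KO libraries. All KO libraries were below WT, and the difference lay at the edge of the threshold (log2 fold change -0.46 ± 0.15, adjusted p = 0.0532; without KO replicate 1 -0.63, adjusted p = 0.00086). With all libraries Hyou1 was called lower with DESeq2, limma-voom, upper-quartile scaling, library totals and both other filters (adjusted p = 0.00664 to 0.0497). For the genes with an ERSE match, the ratio of KO replicate 1 to the other KO libraries varied. It was 3.46 for Hspa5, 2.435 for Hsp90b1, 2.35 for Ero1lb and 1.44 for Pdia6. It was 1.12 for Creld2, 1.10 for Syvn1, 1.07 for Dnajc3 and 0.53 for Derl3, which had 4 counts in KO replicate 1. A part of the element in these values was not tested.

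Among the 5 thiol oxidoreductases that form and rearrange disulfide bonds 4 were called higher, where 13.8% of all tested genes were, and Ero1lb was not called. P4hb, the classical protein disulfide isomerase and a subunit of the collagen prolyl hydroxylase, rose (log2 fold change 0.81 ± 0.13, adjusted p = 0.00658). It was at 809, 722 and 712 CPM in WT and 1133, 1301 and 1488 CPM in KO, and here KO replicate 1 was the lowest KO library. Pdia6 was at 191, 163 and 152 CPM in WT and 349, 227 and 257 CPM in KO (log2 fold change 0.72 ± 0.21, adjusted p = 0.023). Pdia3, which works with calnexin and calreticulin on glycoproteins, was at 520, 520 and 477 CPM in WT and 921, 671 and 665 CPM in KO (0.57 ± 0.16, adjusted p = 0.0335). Pdia4 was at 158, 144 and 146 CPM in WT and 255, 181 and 190 CPM in KO (0.48 ± 0.16, adjusted p = 0.0486). For these genes every KO library was above every WT library, and all 4 were also called without KO replicate 1, with log2 fold changes of 0.90, 0.52, 0.40 and 0.32.

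The calls of Pdia3, Pdia4 and Pdia6 depended on the libraries used. Pdia3 was no longer called when WT replicate 1, 2 or 3 was left out (adjusted p = 0.0964, 0.11 and 0.113) and Pdia6 without WT replicate 2 or 3 (0.0947 and 0.0918). Pdia4 was not called without WT replicate 1, 2 or 3 or KO replicate 3 (adjusted p = 0.104, 0.168, 0.139 and 0.0675) and with upper-quartile scaling (0.0552) or no filter (0.0525). With library-total scaling Pdia3 and Pdia4 were not called (0.0772 and 0.143). Ero1lb, an oxidase that recharges these isomerases, was at 14.7 to 15.9 CPM in WT and 35.1, 14.6 and 15.3 CPM in KO. It was high in KO replicate 1 alone (log2 fold change 0.49 ± 0.41, adjusted p = 0.313).

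In ERAD and translocation 1 of 8 genes was called. Edem1, a lectin that picks misfolded glycoproteins for degradation, rose (log2 fold change 0.80 ± 0.15, adjusted p = 0.00576). It was at 54.0, 57.9 and 61.7 CPM in WT and 120, 88.8 and 93.5 CPM in KO, without overlap. Herpud1, a scaffold of the HRD1 ubiquitin ligase complex, was at 110, 116 and 93.0 CPM in WT and 118, 72.1 and 62.0 CPM in KO. KO replicates 2 and 3 were below WT, as for Ddit3, but KO replicate 1 was only just above the highest WT library (log2 fold change -0.34, adjusted p = 0.321). Without KO replicate 1 the log2 fold change of Herpud1 was -0.67 (adjusted p = 0.00338). Sel1l, the adaptor of that complex, was at 73.3 to 78.8 CPM in WT and 78.2, 59.9 and 61.3 CPM in KO (adjusted p = 0.318; without KO replicate 1 -0.32 log2, adjusted p = 0.0136). Its ligase Syvn1 was at 47.7 to 54.7 CPM in WT and 50.5 to 57.8 CPM in KO (log2 fold change 0.10 ± 0.08, adjusted p = 0.561).

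Derl1, a membrane protein of the ERAD exit route, was at 202 to 223 CPM in WT and at 333, 246 and 259 CPM in KO (log2 fold change 0.37 ± 0.14, adjusted p = 0.0891). Its relative Derl3 was sparse, its counts being 25, 19 and 11 in WT against 4, 10 and 10 in KO (adjusted p = 0.0657). Selenos, a selenoprotein that recruits the extracting ATPase, was at 32.7 to 39.8 CPM in WT and 33.0, 46.1 and 42.5 CPM in KO (adjusted p = 0.572). Sec61b, a subunit of the translocation channel, was at 81.8, 67.6 and 49.1 CPM in WT and 72.8, 93.2 and 104 CPM in KO (log2 fold change 0.45 ± 0.26, adjusted p = 0.153; without KO replicate 1 0.58, adjusted p = 0.0385). In both of these KO replicate 1 was the lowest KO library.

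The constitutive and inducible cytosolic HSP70 genes moved in opposite directions. Hspa8, the constitutive form, rose (log2 fold change 0.59 ± 0.03, adjusted p = 0.0105), from 1116, 1084 and 1052 CPM in WT to 1672, 1643 and 1584 CPM in KO. Its KO libraries differed by only 1.06 times from highest to lowest. With WT replicate 2 left out it was no longer called (adjusted p = 0.0668). Hspa1b, an inducible form, fell (log2 fold change -0.85 ± 0.25, adjusted p = 0.0266), from 21.8, 24.8 and 19.8 CPM in WT to 9.47, 16.3 and 11.1 CPM in KO. Hspa1a, its neighbour on chromosome 17, fell (log2 fold change -1.44 ± 0.25, adjusted p = 0.0169), from 40, 47 and 39 counts in WT to 12, 23 and 13 in KO. The transcripts of Hspa1a and Hspa1b are 99.3% identical over 2197 aligned bases. How reads matching both were counted is not given in the sources used here, so both values are uncertain. Hspa1a also shares 564 of its 2967 exon bases with Gm20481 on the opposite strand. Both lost their calls without WT replicate 1, 2 or 3 or KO replicate 3, Hspa1b at adjusted p = 0.0794, 0.107, 0.0576 and 0.08 and Hspa1a at 0.0522, 0.0748, 0.053 and 0.0672.

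None of the other cytosolic heat shock genes was called. Hsph1, an exchange factor for cytosolic HSP70, was at 147, 125 and 122 CPM in WT and 156, 158 and 190 CPM in KO, without overlap (log2 fold change 0.36, adjusted p = 0.0776; without KO replicate 1 0.41, adjusted p = 0.0255). Dnajb1, its HSP40 partner, was at 68.0 to 81.4 CPM in WT and 84.3 to 88.8 CPM in KO (adjusted p = 0.191). The abundant HSP90 genes had small differences, Hsp90aa1 at a log2 fold change of -0.09 ± 0.06 (adjusted p = 0.6) and Hsp90ab1 at -0.003 ± 0.24 (adjusted p = 0.993). Hsp90ab1 was lowest in KO replicate 1, at 1393 CPM against 2185 and 2328 CPM in the other KO libraries and 1847 to 2069 CPM in WT.

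Small heat shock proteins, which hold unfolded clients, differed among the KO libraries. Hspb1 was at 60.5 to 88.4 CPM in WT and 132, 61.8 and 59.0 CPM in KO, the one heat shock gene of the set at least 2-fold higher in KO replicate 1 than in the other KO libraries (adjusted p = 0.726). Hspb8 had the reverse order, at 60.5 to 78.6 CPM in WT and 74.6, 109 and 113 CPM in KO (log2 fold change 0.52 ± 0.22, adjusted p = 0.0713; without KO replicate 1 0.68, adjusted p = 0.00231). Cryab was at 13.2 to 25.3 CPM in WT and 13.4 to 24.8 CPM in KO (adjusted p = 0.803), and shares 252 of its 1479 exon bases with Hspb2 on the opposite strand. The mitochondrial pair Hspd1 and Hspe1, which form the folding chamber of the matrix, had log2 fold changes of -0.19 ± 0.17 (adjusted p = 0.418) and 0.21 ± 0.11 (adjusted p = 0.262). Hspd1 was at 461 to 564 CPM in WT and 363 to 510 CPM in KO, and Hspe1 at 204 to 250.4 CPM in WT and 239.8 to 285 CPM in KO.

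Leaving out KO replicate 1, a choice made after its values were seen, raised the number of called members from 9 to 20 of 40. Of these, 11 were higher and 9 lower. Of all tested genes 42.3% were then called, 19.9% higher and 22.4% lower, so the members' share of 50% is read against that higher background. The 9 genes called with all libraries were all called without KO replicate 1 too, in the same direction. The 11 others were Xbp1, Hsp90b1, Sec61b, Hsph1 and Hspb8, which rose, and Ddit3, Ern1, Ppp1r15a, Hyou1, Herpud1 and Sel1l, which fell. Among the sensors and their output, 1 was then higher and 3 lower of 6, and among the chaperones and cofactors 1 higher and 2 lower of 9. The sign of the log2 fold change differed from that with all libraries for 6 members, of which Ddit3 was the one with a call.

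**Figure D3:**
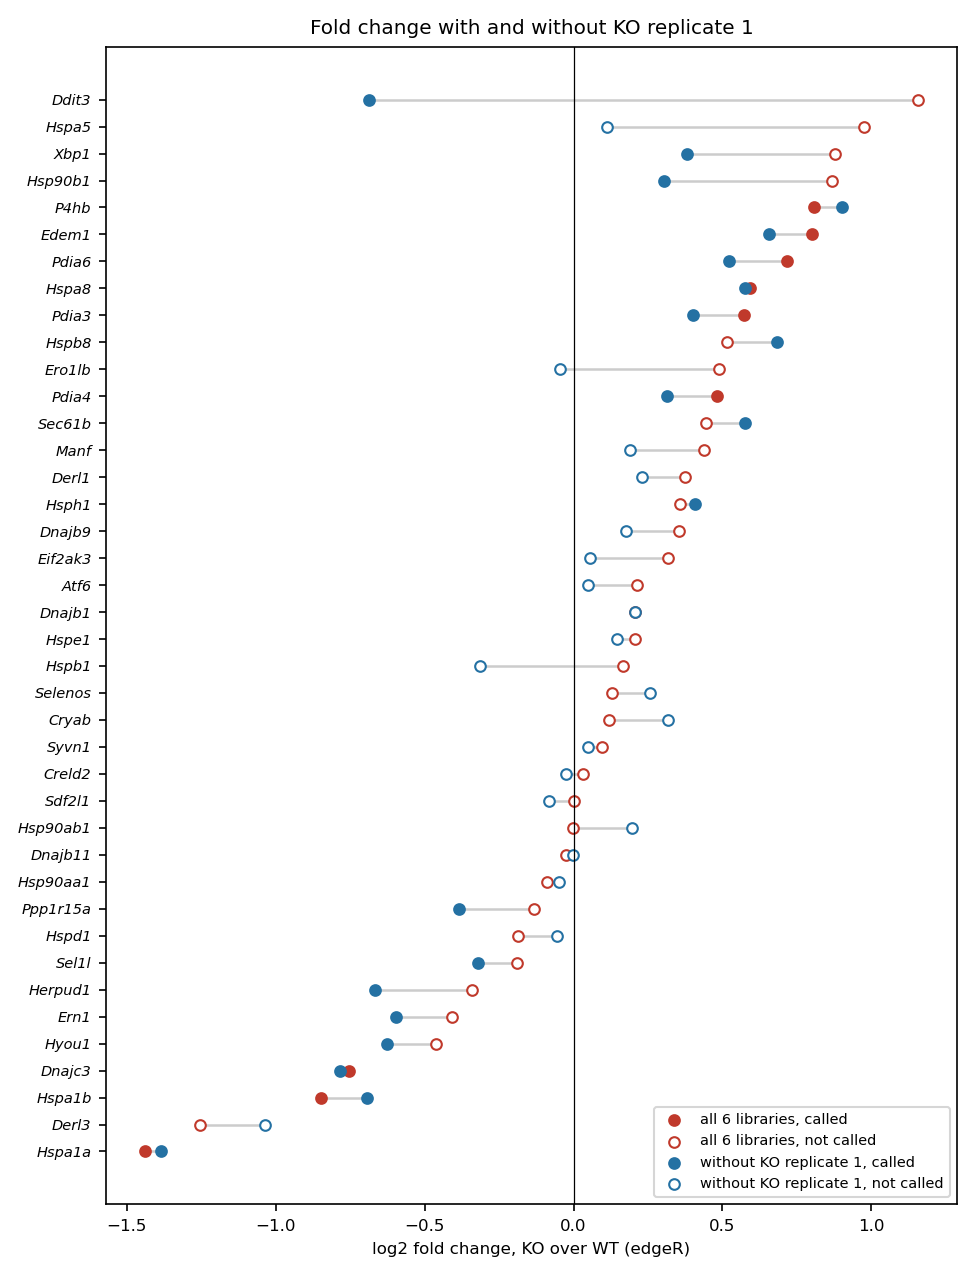
Log2 fold change of each member, KO over WT, with all 6 libraries (red) and without KO replicate 1 (blue), filled where called at an adjusted p below 0.05. Ddit3 moved from 1.16 to -0.69 and Hspa5 from 0.98 to 0.11, while P4hb, Hspa8 and Dnajc3 hardly moved.

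Levels per kilobase of exon place the members in an order of level. Exon length is merged over all annotated transcripts of a gene and can exceed that of the transcript expressed. The order is therefore not an exact order of transcript abundance. In CPM per kilobase of exon, the highest in WT was Hsp90ab1 at 658, followed by P4hb at 261 and Hspa8 at 252. Next came Hspd1 at 193, Hsp90aa1 at 183, Hspa5 at 164 and Pdia3 at 161. In KO the order was Hsp90ab1 at 656, P4hb at 457, Hspa8 at 380 and Hspa5 at 322, the last raised by KO replicate 1. The sensors were far lower, with Ern1 at 11.5, Atf6 at 9.34 and Eif2ak3 at 2.73 CPM per kilobase in WT, and Derl3 was the lowest member at 0.293.

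Lists of other genes of the same pathways were compared in the same way. Of 25 tested genes of COPII coats and ER exit, which carry folded cargo to the Golgi, 11 rose and none fell, where 13.8% of all tested genes were higher and 14.5% lower. The median log2 fold change was 0.39, and KO libraries lay all above WT for 19, against 23.8% of all tested genes. Mcfd2, a cargo receptor subunit, rose (log2 fold change 0.93 ± 0.07, adjusted p = 0.00088), from 85.1 ± 4.43 to 162 ± 9.59 CPM (SD, n = 3). Sec24d, a COPII coat subunit that sorts cargo, rose (log2 fold change 1.04 ± 0.11, adjusted p = 0.00113), from 97.3 ± 6.05 to 199.9 ± 24.4 CPM. With WT replicate 1, 2 or 3 left out, 7, 5 and 7 were higher, and with library-total scaling 6 were higher and 1 lower. With DESeq2 14 were higher. Without KO replicate 1, 14 were higher and 0 lower, where 19.9% of all tested genes were higher and 22.4% lower.

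Of 35 tested genes for other ER folding steps 13 rose and none fell, 37.1% called against 28.3% of all tested genes, with a median log2 fold change of 0.38. Plod2, a collagen lysyl hydroxylase, rose (log2 fold change 1.26 ± 0.12, adjusted p = 0.000616), from 84.2 ± 4.22 to 201 ± 26.7 CPM, and Fkbp9, an ER prolyl isomerase, rose too (0.80 ± 0.04, adjusted p = 0.00142). Named after its values were seen, Calr, for the lectin chaperone calreticulin, was at 844 to 938 CPM in WT and 2246, 1137 and 1158 CPM in KO (log2 fold change 0.76, adjusted p = 0.0732), the pattern of Hsp90b1. With all libraries Calr was called higher with DESeq2 (adjusted p = 0.0247) and with no filter (0.03). Its partner Canx was at 452 to 487 CPM in WT and 412 to 569 CPM in KO (adjusted p = 0.805). Also named after its values were seen, Ero1l, the paralogue of Ero1lb, was at 121 to 124 CPM in WT and 558, 172 and 231 CPM in KO (log2 fold change 1.39 ± 0.51, adjusted p = 0.036), and was not called when WT replicate 1, 2 or 3 was left out (adjusted p = 0.115, 0.113 and 0.114). With library-total scaling 4 genes of this list were lower, and without WT replicate 2, 7 were higher. Without KO replicate 1, 18 were higher and 1 lower, against 19.9% and 22.4% of all tested genes.

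Of 21 other tested signalling genes of the unfolded protein response, 5 were lower, 2 higher and 14 not called, 33.3% called against 28.3% of all tested genes, with a median log2 fold change of -0.20. The death receptor gene Tnfrsf10b fell (log2 fold change -1.32 ± 0.07, adjusted p = 0.000274), from 65.95 ± 1.70 to 26.3 ± 1.93 CPM, and Sesn2, a stress-induced regulator of TORC1, fell as well (-1.23 ± 0.13, adjusted p = 0.000733). The 3 remaining lower genes, named after their values were seen, are targets of ATF4. Trib3 was at 137 to 147 CPM in WT and 64.5, 56.3 and 42.4 CPM in KO (log2 fold change -1.38, adjusted p = 0.001). Chac1 was at 79.1 to 86.3 CPM in WT and 38.0, 27.3 and 25.5 CPM in KO (-1.47, adjusted p = 0.000916), and Atf3 at 29.2 to 42.5 CPM in WT and 19.8, 10.6 and 8.95 CPM in KO (-1.48, adjusted p = 0.0109). These 3 genes were below WT in every KO library, KO replicate 1 included, where Ddit3 was at its highest. Within KO each of them was also highest in KO replicate 1. A link between them and Ddit3 was not tested. Atf4 itself was at 494 to 639 CPM in WT and 534, 383 and 371 CPM in KO (adjusted p = 0.122; without KO replicate 1 -0.61 log2, adjusted p = 0.00606). Creb3l2, an ER-anchored factor of secretory genes, rose (log2 fold change 0.80 ± 0.13, adjusted p = 0.00521), and Mbtps1, the protease that cuts ATF6, rose (0.39 ± 0.07, adjusted p = 0.0359). Mbtps1 was not called when any library other than KO replicate 1 was left out (adjusted p = 0.0516 to 0.166) and with library-total scaling (0.21). Without KO replicate 1 the lower genes of this list numbered 9 and the higher 3, against 22.4% and 19.9% of all tested genes. With library-total scaling the lower genes numbered 8.

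**Figure D4:**
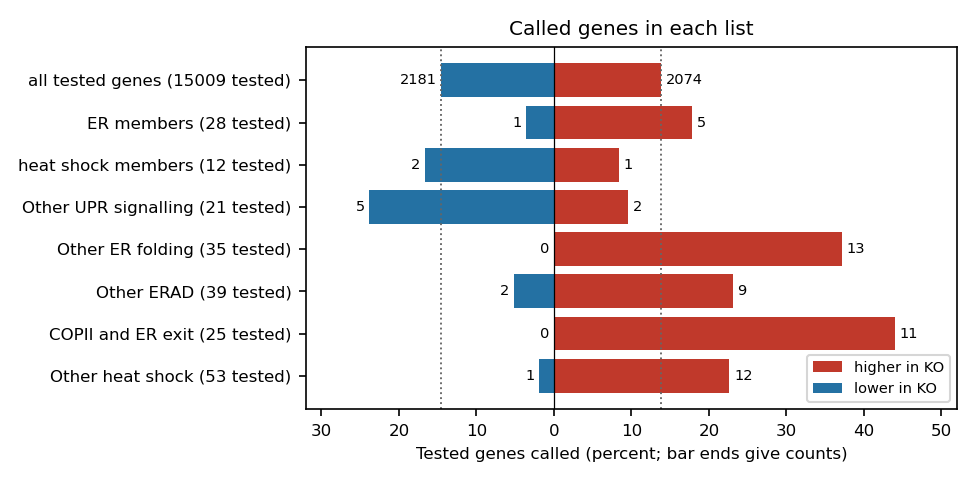
Share of tested genes called higher (red) or lower (blue) in KO, in percent, for all tested genes, the ER and heat shock members and the 5 lists of other pathway genes, with counts at the bar ends and dotted lines at the shares of all tested genes. The COPII and ER exit list and the list of other ER folding genes had 11 and 13 higher genes and none lower.

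Among 39 other ERAD and translocation genes 9 rose and 2 fell, 28.2% called and thus no more than the 28.3% of all tested genes, with a median log2 fold change of 0.16. Ssr3, a subunit of the translocon-associated complex, rose (log2 fold change 0.99 ± 0.16, adjusted p = 0.00387), from 321 ± 17.5 to 637 ± 124 CPM, and the signal peptidase subunit Spcs3 rose (0.73 ± 0.09, adjusted p = 0.00373). Edem2, a relative of Edem1, fell (log2 fold change -0.65 ± 0.13, adjusted p = 0.012), but not when WT replicate 2 was left out (adjusted p = 0.0605). Faf2, which recruits the ATPase VCP, fell (-0.47 ± 0.10, adjusted p = 0.0211), but not when WT replicate 1, 2 or 3 or KO replicate 3 was left out (0.0716, 0.079, 0.0637 and 0.0506). The higher genes of this list were 4 without WT replicate 2, and with library-total scaling 5 were lower. Without KO replicate 1, 12 were higher and 2 lower, against 19.9% and 22.4% of all tested genes. Of 53 other heat shock genes 12 rose and 1 fell, 24.5% called against 28.3% of all tested genes, with a median log2 fold change of 0.06. Hspb2, a small heat shock gene of muscle, rose (log2 fold change 4.39 ± 0.36, adjusted p = 0.000368), from 0.201 ± 0.092 to 4.33 ± 0.87 CPM, and overlaps Cryab. Hspa12a, a distant HSP70, rose (0.91 ± 0.18, adjusted p = 0.00645), and the HSP40 gene Dnaja4 fell (-1.69 ± 0.22, adjusted p = 0.00252), with 1581 exon bases shared with Wdr61 on the opposite strand. The higher genes of this list were 5 without WT replicate 1, 2 or 3, and the lower 6 with library-total scaling. Without KO replicate 1, 15 were higher and 3 lower, against 19.9% and 22.4% of all tested genes. The master regulator Hsf1 was not called (log2 fold change -0.003 ± 0.14, adjusted p = 0.99).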

How the data were processed

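Each deposited file holds the raw counts of 1 library, reads per Ensembl gene as the authors counted them. TopHat2 2.1.0, HTSeq, DESeq2 and GRCm38.p4 appear in the submitters' processing notes. Which annotation release, strand setting and read filters were used is not given in the sources used here. Symbols, positions and exon lengths came from GENCODE M21 (GRCm38), which matched 46005 identifiers and left 598 unmatched. Genes passing filterByExpr by group were scaled with TMM and tested, KO against WT, by the two-sided quasi-likelihood F test of edgeR 4.0.16 (R 4.3.3) with no term but group, a step checked on simulated data. Adjusted p-values are Benjamini-Hochberg over all tested genes. The SE of a log2 fold change comes from log2 CPM (prior count 2) in 3 libraries per group. CPM uses TMM-scaled totals. Motifs were searched in RefSeq promoters.

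The members and lists were chosen with earlier results of these data known. Values are given for every member, and for the 2 genes with the smallest p in each direction of each other list. Of 176 other genes listed 175 were found among the counted identifiers, and 4 were read under their current symbols. Srp54a, among those found, had 0 counts in every library. Other settings tried were RLE, library totals and upper-quartile scaling, limma-voom (limma 3.58.1), DESeq2 1.42.0, 2 other filters, a fit without the 10 most abundant genes, a block for the replicate number, and fits with 1 library left out. The labels pair no libraries by number. No protein sequence was used here.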

Additional observations from a re-analysis of the deposited data

How the results depend on the processing

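Among settings other than leaving out a library, 338 of 359 single-member values kept their side of the threshold, and 13 of these, all uncalled, changed sign. Of the 9 called members, 3 (P4hb, Edem1 and Dnajc3) kept their call in all 15 alternatives. Log2 fold changes changed sign in at least 1 alternative for 11 members, and the one with a call there was Ddit3, at -0.69 without KO replicate 1 and up to 1.62 without another library.

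Higher members numbered 10 with DESeq2. The ER genes had 3 higher and 5 lower with library totals, where 7 members in all were lower. They had 2 lower with upper-quartile scaling, DESeq2, limma-voom, no filter or a filter at 1 CPM in 3 libraries. The heat shock genes had 3 higher with DESeq2, where Hsph1 and Hspb8 were called (adjusted p = 0.0467 and 0.0417). Library totals moved the median log2 fold change of all genes from 0.01 to -0.19 and the higher share of called genes from 48.7% to 28.8%.

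With 1 library left out, the changed genes numbered 2298 to 6537, the higher members 2 to 11 and the lower 1 to 9. The ER genes then had 2 to 8 higher and 1 to 7 lower, and the heat shock genes 0 to 3 higher and 0 to 2 lower. Such fits have fewer libraries, yet leaving out KO replicate 1 raised the counts.

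Equally numbered WT and KO libraries deviated from their group means with correlations of -0.101, 0.046 and -0.148 across genes. Not every library correlated best with its own number. With 3 libraries per group such correlations can neither show nor exclude a shared batch. With the replicate block 3045 genes were called and the ER genes had 3 higher. Derl3 and Hspa1a rest on 4 to 47 counts a library, the lowest depth among the members.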
